A study of Mus musculus with 8 samples.

Results

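The aminoacyl-tRNA synthetases examined here were 36 genes, 20 for the cytosolic enzymes and 16 for the mitochondrial enzymes, whose symbols end in 2. A gene was taken as measured if a probe named through 1 of its RefSeq transcripts passed the scanner software's background test on 4 or more of the 8 arrays, and 35 of the 36 did, among 23105 features tested in all. The exception was Mars2, the mitochondrial methionyl enzyme, whose 1 probe was well above background on 2 of 8 arrays. The probes used for the other 35 were well above background on all 8 arrays. The 67 probes of these genes hold no deposited sequence, so their genes are known by transcript name alone.

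RNA came from the femoral growth plates of 8 littermate mice aged 12 days, 4 labelled Cre and 4 labelled CreTW, and 100 ng of each was hybridised to a 1-colour Agilent array. The labels give no strain, sex or treatment, and name each genotype by its abbreviation alone. From what is known of the study, both genotypes carry a Cre recombinase driven from type II collagen sequences, which are active in chondrocytes. The CreTW mice also carry a transgene for a dominant mutant of Twinkle, the helicase of mitochondrial DNA replication, which Cre switches on. The control mice therefore share the recombinase, and cells of the growth plate that do not express Cre keep normal Twinkle. The series title concerns an inactive respiratory chain and growth retardation through cartilage.

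Each aminoacyl-tRNA synthetase joins an amino acid to its tRNA, the step that fixes the genetic code before the ribosome is reached. Class I and class II enzymes have unrelated catalytic folds, and several cytosolic members sit together in the multisynthetase complex. Mitochondria translate the few proteins of their own DNA with a separate set of nuclear-encoded enzymes, apart from Gars and Kars, each of which serves both compartments from a single gene. When uncharged tRNA builds up, the kinase GCN2 slows translation and the transcription factor ATF4 is made, and ATF4 binds C/EBP-ATF response elements (CARE) in many genes of amino acid metabolism, cytosolic synthetases included. Mitochondrial dysfunction is known to start the same response.

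The CARE letters TGATGNAA, searched on both strands, lay in the promoter window of 5 of 13 cytosolic synthetase genes and of 0 of 14 mitochondrial ones, against 3.97% of all 32851 windows. The windows are RefSeq's on GRCm38.p6 and run from 250 bases before to 50 after an annotated start, and 9 of the 36 genes had none in the table. The 5 genes are Aars, Gars, Iars, Tars and Yars, and they are shown because they are the members with the letters. Below, the letters are in capitals and each sequence reads 5′ to 3′ in the direction of the gene, so TTGCATCA and TTTCATCA are matches on the other strand. Positions count from the annotated start, with -1 the base before it. The windows of Aars, Yars, Wars2, Vars2 and Sars2 belong to starts inside the annotated gene. That of Aars holds a match at 10 (chr8:111033840-111033869, plus strand). The Iars match is at 8 (chr13:49682126-49682155, plus strand) and the Yars match at 4 (chr4:129189895-129189924, plus strand).
Aars at 10: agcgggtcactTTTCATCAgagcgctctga
Iars at 8: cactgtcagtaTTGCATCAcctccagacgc
Yars at 4: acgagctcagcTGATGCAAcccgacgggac

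For Gars and Tars, whose matches lie upstream at -30 and -15, the 150 bases before the start are given (chr6:55037851-55038000, plus strand, and chr15:11399659-11399808, minus strand). The same 150 bases are given for Sars (chr3:108445260-108445409, minus strand), the gene with the largest difference between genotypes and no match. Its mitochondrial counterpart Sars2 is given from -150 to -12 (chr7:28741818-28741956, plus strand), the last base before the annotated gene, also with no match. A match is a description of letters, and its absence says only that they are not in this window.
Gars: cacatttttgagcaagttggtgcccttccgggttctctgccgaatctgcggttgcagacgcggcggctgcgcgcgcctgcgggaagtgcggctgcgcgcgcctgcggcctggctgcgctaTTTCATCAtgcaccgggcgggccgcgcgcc
Tars: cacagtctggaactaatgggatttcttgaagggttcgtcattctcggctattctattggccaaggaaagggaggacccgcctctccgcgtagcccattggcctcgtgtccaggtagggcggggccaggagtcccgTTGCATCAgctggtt
Sars: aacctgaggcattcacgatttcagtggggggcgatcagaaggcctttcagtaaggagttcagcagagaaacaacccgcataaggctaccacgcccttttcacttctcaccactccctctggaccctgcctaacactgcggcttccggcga
Sars2: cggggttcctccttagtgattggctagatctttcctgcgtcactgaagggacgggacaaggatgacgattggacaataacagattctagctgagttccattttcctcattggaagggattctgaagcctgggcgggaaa

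A second set of letters was searched for the mitochondrial enzymes, CGCATGCG, the inner part of the motif of NRF1, a transcription factor of nuclear genes for mitochondrial proteins. It lay in the promoter window of 2 of 14 mitochondrial and 0 of 13 cytosolic genes, against 1.87% of all windows. The counts are of genes and the share is of windows. The windows holding it were those of Wars2, with a match at -63 (chr3:99141016-99141045, plus strand), and Vars2, with matches at -47 and -21 (the latter at chr17:35667595-35667624, minus strand).
Wars2 at -63: cagaggacaggCGCATGCGtagtaagcaca
Vars2 at -21: gtccccgcccaCGCATGCGcgcgcacctcg

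No synthetase gene passed the test between genotypes, and the cytosolic and mitochondrial enzymes differed in where their values lay. Of 20 cytosolic genes 14 had a positive log2 difference (CreTW minus Cre), with a median of 0.13, and of 15 mitochondrial genes 6 did, with a median of -0.02. Over all features tested 48.4% of differences were positive and the median was -0.01. In limma with Benjamini-Hochberg adjustment over all features, 0 of 35 genes were called at 0.05, where 0.346% of features were called (0.229% higher and 0.117% lower). The lowest adjusted p was 0.148, for Sars. Without adjustment, 6 of the 20 cytosolic genes had p under 0.05 and were higher (30.0%, against 5.93% of all features), and 1 was lower (against 4.8%), while 0 of the 15 mitochondrial genes had such a p in either direction. All 4 CreTW arrays lay above all 4 Cre arrays for 5 cytosolic genes and 0 mitochondrial ones (background 3.89%), and below them for 1 cytosolic gene (background 2.81%). These counts describe the genes and are not a test of the list, whose members were chosen with earlier results of these data known. In a bulk sample, fewer cells of a type and less RNA per cell cannot be told apart.

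**Figure D1:**
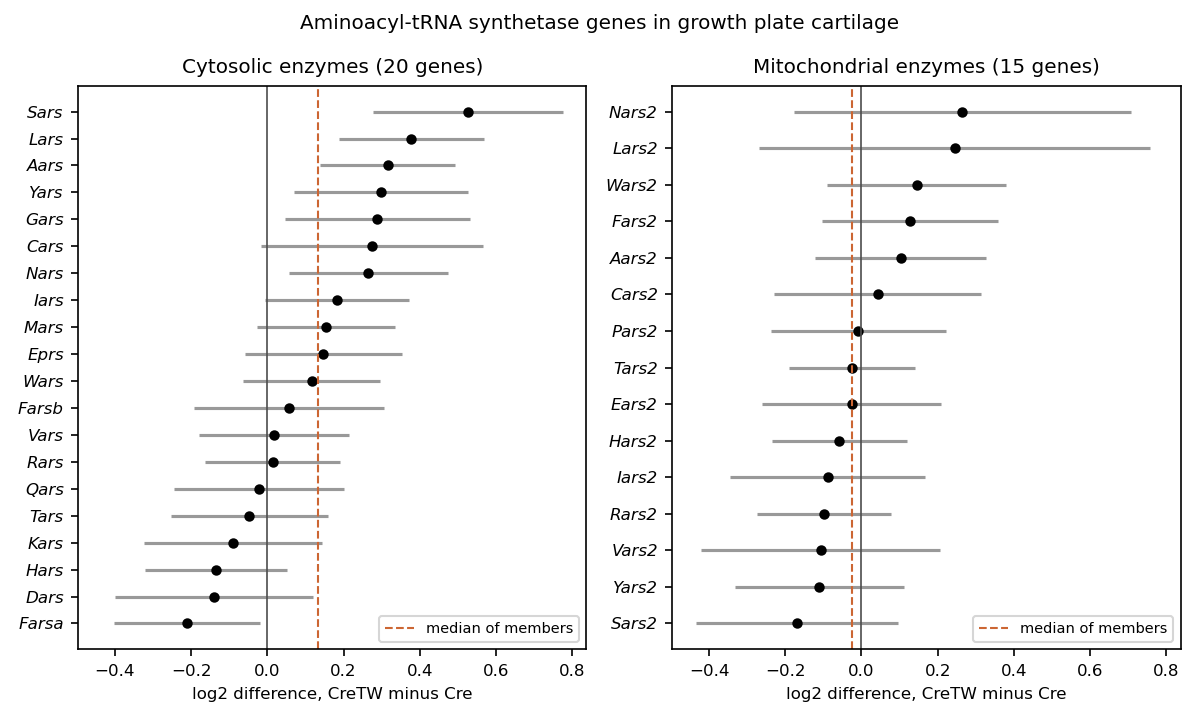
Log2 difference between CreTW and Cre (x axis) of each measured cytosolic (left, 20 genes) and mitochondrial (right, 15 genes) synthetase gene, with limma's unadjusted 95% interval, n = 4 arrays per genotype; dashed lines are the medians of the members, 0.13 and -0.02. Cytosolic points run from -0.21 (Farsa) to 0.53 (Sars), and every mitochondrial interval includes 0.

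Among the enzymes outside the multisynthetase complex, Sars, Aars, Yars and Gars had the largest differences. Levels below are log2 processed signal relative to the array's 75th percentile, and they are not comparable between genes. Sars, which charges tRNA with serine, was at 4.27, 4.48, 4.23 and 4.58 on the Cre arrays and at 5.09, 4.91, 4.82 and 4.84 on the CreTW arrays. The genotypes did not overlap, and the CreTW mean was 1.44 times the Cre mean (log2 0.53 ± 0.11 SE, 95% interval 0.28 to 0.78, n = 4 per genotype, adjusted p = 0.148 in limma). The difference was 0.43 to 0.73 over 23 other ways of processing, and 2 of these called it (adjusted p 0.0268 with normexp background correction and 0.0498 with trend and robust variances), so Sars lies near the threshold.

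Aars, the alanyl enzyme, was at 3.40, 3.51, 3.35 and 3.52 on the Cre arrays and at 3.79, 3.74, 3.72 and 3.79 on the CreTW arrays. All 4 CreTW values were higher, within a narrow range (log2 0.32 ± 0.08, 95% interval 0.14 to 0.49, adjusted p = 0.214 in limma). Yars, the tyrosyl enzyme, was at 2.07, 2.08, 1.99 and 2.27 in Cre and at 2.57, 2.39, 2.25 and 2.39 in CreTW cartilage. Its genotypes overlapped by a little, at Cre replicate 4 and CreTW replicate 3 (log2 0.30 ± 0.10, adjusted p = 0.346 in limma). A second, dim Yars probe gave -0.09, but it was well above background on 3 arrays and did not pass the filter. Gars, the glycyl enzyme that also serves mitochondria, was at 6.31, 6.41, 6.20 and 6.63 in Cre and at 6.74, 6.67, 6.58 and 6.72 in CreTW. Here too Cre replicate 4 reached into the CreTW range (log2 0.29 ± 0.11, adjusted p = 0.389 in limma). Sars, Aars and Gars, and Nars below, each rest on 1 probe.

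Among the other free enzymes, values ran from positive to negative by amino acid. Cars (cysteine) had a log2 difference of 0.27 ± 0.13 and Nars (asparagine) one of 0.26 ± 0.09, with no overlap between genotypes for Nars. The 3 probes of Cars lay close together, at 0.26 to 0.27. Wars (tryptophan) was at 0.12 ± 0.08, Farsb, the beta subunit of the phenylalanyl enzyme, at 0.06 ± 0.11, Vars (valine) at 0.02 ± 0.09, Tars (threonine) at -0.05 ± 0.09 and Hars (histidine) at -0.13 ± 0.08. Farsa, the catalytic alpha subunit that pairs with Farsb, had the lowest value of the cytosolic genes, -0.21 ± 0.08 (adjusted p = 0.428 in limma), with all 4 CreTW arrays below all 4 Cre arrays. Its 3 probes gave -0.21, -0.24 and -0.38, and both probes of Farsb were positive, at 0.06 and 0.18. The subunits of the same enzyme thus had values of opposite sign, and the difference between them was not tested.

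In the multisynthetase complex, the leucyl enzyme stood at one end and the aspartyl enzyme at the other. Lars, which charges leucine tRNA, was at 2.45, 2.34, 2.55 and 2.56 on the Cre arrays and at 2.86, 2.85, 2.92 and 2.77 on the CreTW arrays. The genotypes did not overlap (log2 0.38 ± 0.08, 95% interval 0.19 to 0.57, adjusted p = 0.179 in limma), and a second, dimmer Lars probe gave 0.56 ± 0.09. Iars (isoleucine) was at 0.18 ± 0.08 with no overlap, Mars (methionine) at 0.15 ± 0.08, and Eprs, which joins the glutamyl and prolyl enzymes in 1 protein, at 0.15 ± 0.09 with all 4 of its probes between 0.11 and 0.15. Rars (arginine) was at 0.01 ± 0.08, Qars (glutamine) at -0.02 ± 0.10 and Dars (aspartate) at -0.14 ± 0.11. Kars, the lysyl enzyme of both compartments, was at 4.14, 4.26, 3.92 and 4.26 in Cre and at 4.16, 4.0, 3.96 and 4.10 in CreTW cartilage. The groups overlapped throughout (log2 -0.09 ± 0.10), and a covariate for skeletal muscle markers (described further on) turned the value to 0.13. Gars and Kars, the pair with dual roles, thus did not share a clear direction.

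By group, the 8 cytosolic members of the complex had a median of 0.08 and the 12 outside it one of 0.19. Of 10 class I cytosolic genes 9 were positive (median 0.15), and of 10 in class II 5 were (median 0.00), class II holding both the highest value, Sars, and the lowest, Farsa. Eprs, whose glutamyl part is class I and prolyl part class II, was counted in class I. The 5 genes with CARE letters in the window had a median of 0.29 and values of -0.05 (Tars) to 0.32 (Aars), and the 8 with a window but no such letters a median of 0.02, with Sars among them at 0.53. The 7 cytosolic genes that had no window were not searched (median 0.12). None of these splits was tested.

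**Figure D2:**
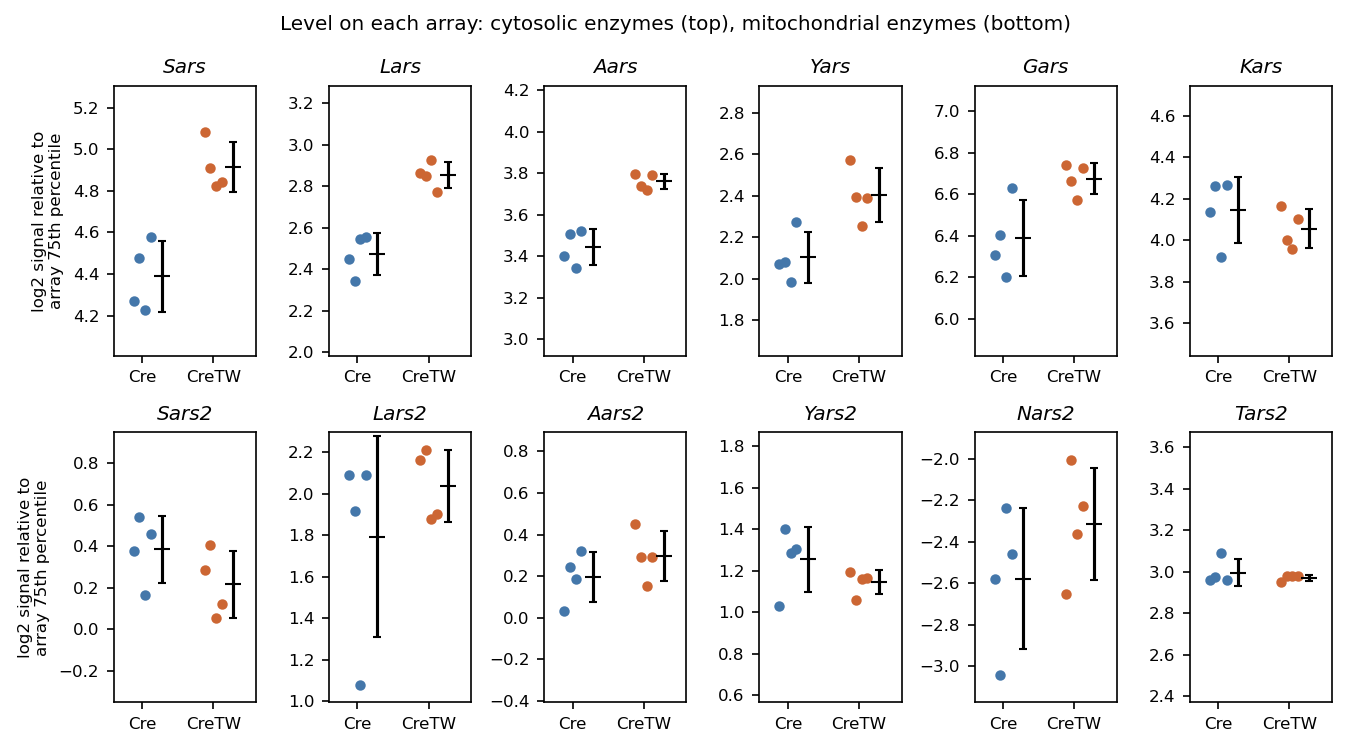
Level on each array (log2 signal relative to the array's 75th percentile) of 6 cytosolic genes (top) and 6 mitochondrial genes (bottom); blue points are the 4 Cre and orange points the 4 CreTW arrays, and the black mark is the mean with its SD. All panels span the same range of log2 units. Sars, Lars and Aars are higher on all 4 CreTW arrays, and every mitochondrial panel shows overlap, with 1 low Cre array for Lars2.

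The mitochondrial enzymes lay around 0. Nars2, the asparaginyl enzyme, had the highest value but a dim probe, at -2.58, -3.04, -2.24 and -2.46 on the Cre arrays and at -2.65, -2.01, -2.36 and -2.23 on the CreTW arrays. The groups overlapped, and the interval was wide (log2 0.26 ± 0.19, 95% interval -0.18 to 0.71, adjusted p = 0.649 in limma). With the muscle covariate, the value was -0.23. Lars2, the leucyl enzyme, was at 2.09, 1.92, 1.08 and 2.09 in Cre and at 2.16, 2.21, 1.88 and 1.90 in CreTW cartilage. Cre replicate 3 alone was low, and the difference of 0.24 ± 0.23 became 0.01 without it. A second Lars2 probe gave -0.02 ± 0.09.

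The remaining named mitochondrial genes had small values of either sign. Sars2 (serine) was at 0.38, 0.54, 0.16 and 0.46 in Cre and at 0.28, 0.40, 0.05 and 0.12 in CreTW, a difference of -0.17 ± 0.12 with overlap. Wars2 (tryptophan) was at -1.25, -1.22, -1.21 and -1.13 in Cre and at -1.04, -1.01, -1.31 and -0.88 in CreTW. For Wars2, 3 CreTW arrays were above the Cre range and 1 was below it (log2 0.14 ± 0.10). Aars2 (alanine) was at 0.03, 0.24, 0.19 and 0.32 in Cre and at 0.45, 0.29, 0.15 and 0.29 in CreTW, with overlap (0.10 ± 0.10).

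Yars2 (tyrosine) was at 1.03, 1.40, 1.28 and 1.31 in Cre and at 1.19, 1.06, 1.16 and 1.16 in CreTW, inside the Cre range (-0.11 ± 0.10). Tars2 (threonine) was at 2.96, 2.97, 3.09 and 2.96 in Cre and at 2.95, 2.98, 2.98 and 2.98 in CreTW. It hardly varied, and its interval was the narrowest of the 15 (-0.02 ± 0.07, 95% interval -0.19 to 0.14). Fars2, the mitochondrial phenylalanyl enzyme, was at 2.46, 2.38, 2.18 and 2.45 in Cre and at 2.63, 2.40, 2.38 and 2.56 in CreTW, with overlap (0.13 ± 0.10). A second, dimmer Fars2 probe gave -0.01 ± 0.16.

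The other 7 mitochondrial genes lay between -0.11 (Vars2, valine) and 0.04 (Cars2, cysteine). Iars2 (isoleucine) was at -0.09 ± 0.11, Rars2 (arginine) at -0.10 ± 0.08, Hars2 (histidine) at -0.06 ± 0.08, Ears2 (glutamate) at -0.03 ± 0.10 and Pars2 (proline) at -0.01 ± 0.10. The 95% intervals of 13 of the 15 mitochondrial genes lay within 0.5 of 0 on the log2 scale, and those of Nars2 and Lars2 reached 0.71 and 0.76. A miss of the threshold does not show that the genotypes are alike, and these intervals give the sizes of difference that the 8 arrays leave possible. Of 11 mitochondrial genes with several probes above background 7 had probes of opposite sign, as values around 0 can, against 1 of 8 cytosolic genes (Rars).

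For 12 amino acids a cytosolic and a mitochondrial gene with matching symbols were both measured, which allows the difference to be taken within each array. Phenylalanine has no such match and was left out, with Farsa at -0.21 and Farsb at 0.06 against 0.13 for Fars2, so both cytosolic values were the lower. Against a second, dimmer Fars2 probe, at -0.01 ± 0.16, Farsa was lower and Farsb higher. Eprs was left out too, at 0.15 against -0.03 for Ears2 and -0.01 for Pars2. The cytosolic gene had the larger log2 difference in 8 of 12 pairs, with a median gap of 0.13. For serine the gap was 0.70 ± 0.09 (SE over arrays), with Sars at 0.53 and Sars2 at -0.17. It was 0.41 ± 0.11 for tyrosine, 0.27 ± 0.12 for isoleucine and 0.21 ± 0.06 for alanine, and these 4 pairs were those with a gap beyond 2 SE. The isoleucine gap rests on an Iars2 probe at -0.09, and a second Iars2 probe, slightly dimmer, gave 0.05 ± 0.09, which would narrow it. For cysteine the gap was 0.23 ± 0.17 and for leucine 0.13 ± 0.28, the latter resting on the variable Lars2 probe. For asparagine both genes were at 0.26, with an SE of 0.27 on their gap, and tryptophan (-0.03 ± 0.11), threonine (-0.02 ± 0.10) and histidine (-0.08 ± 0.09) had small negative ones. The remaining pairs, arginine and valine, were at 0.11 ± 0.06 and 0.12 ± 0.12. No p-value is given for these gaps, since the pairs were chosen with the results known.

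**Figure D3:**
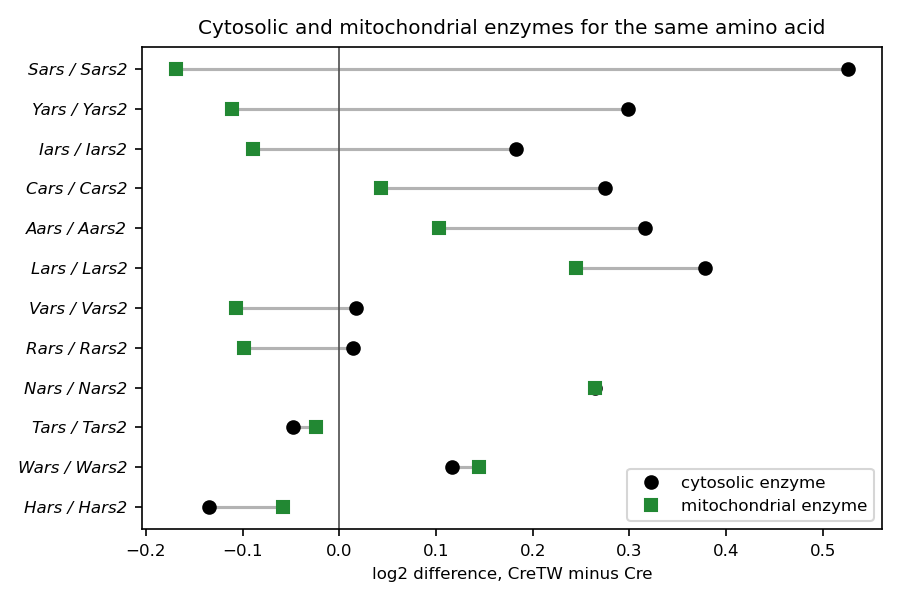
Log2 difference between CreTW and Cre (x axis, n = 4 arrays per genotype) for the cytosolic (black circles) and mitochondrial (green squares) enzyme of the same amino acid, 12 pairs ordered by their gap. The gap is widest for serine (0.70) and close to 0 for asparagine, where the points coincide at 0.26.

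The level of the set on each array shows how the genotypes overlap. Each gene's values were centred on its mean over the 8 arrays and the median over the genes was taken for each array. For the cytosolic genes this median was -0.14, -0.07, -0.12 and 0.04 on the Cre arrays and 0.11, 0.05, 0.01 and 0.05 on the CreTW arrays. Cre replicate 4 lay inside the CreTW range and the other 3 Cre arrays below it. For the mitochondrial genes it was -0.06, 0.00, 0.06 and 0.02 in Cre and 0.00, 0.05, -0.05 and 0.00 in CreTW, mixed throughout. Without Cre replicate 4 the cytosolic median difference was 0.17 and the mitochondrial one 0.02. On Cre replicate 4 the osteoclast marker score was -0.59, against 0.66 to 0.88 on the other Cre arrays, and the chondrocyte score was 0.60, the highest of all arrays. The part of either in the level of the synthetases was not tested.

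Markers of other tissues also differed between arrays. Of 15 skeletal muscle markers 15 were measured, 7 on all 8 arrays, and all 15 had positive differences. Myh1 and Myh2 were well above background on 1 Cre and 4 CreTW arrays. For Actn3, Mybpc2 and Mb these were 1 and 3. Such genes passed the filter mainly through the CreTW arrays, so the filter favoured their positive signs, which carry little weight. All 15 markers enter the muscle score, their mean centred log2 level. Their summed signal, in units of the array's 75th percentile, was 31.0 to 97.1 on the Cre arrays, 42.7 on CreTW replicate 1 and up to 600.1 on the other CreTW arrays. The cytosolic median difference was 0.16 with the muscle score as a covariate, and 0.16 with CreTW replicate 1 alone against the 4 Cre arrays, a comparison with 1 sample in an arm. In these fits the mitochondrial median was -0.02 and -0.03, and the median of all features 0.04 and 0.03. The muscle score was -3.06 to 0.42 on the Cre arrays and -1.18 to 3.40 on the CreTW arrays, so it partly follows genotype. Over all features, 4 were called higher and 0 lower with this covariate, against 53 and 27 without it. The covariate fit therefore cannot tell muscle RNA and genotype apart. The part of muscle RNA in the cytosolic values was not tested. Osteoclast markers (7 of 8 measured, 0 positive, without Calcr) summed to 417 to 1170 in Cre and 274 to 1017 in CreTW. Markers of perichondrium, tendon and fibroblasts (10 of 10 measured, 9 positive) summed to 328 to 451 in Cre and 473 to 572 in CreTW without overlap, and their part in these results was not tested. All 10 chondrocyte markers, Col2a1 and Acan among them, were well above background on all 8 arrays, with 1 positive difference and a median of -0.14. Their summed signal was 2160 to 3600 in Cre and 2103 to 2802 in CreTW. Erythroid markers (4 of 7 measured) had 0 positive differences and a median of -0.63, with sums of 309 to 530 in Cre and 184 to 443 in CreTW. Osteoblast markers (7 of 7 measured) had 0 positive differences and a median of -0.26, with sums of 571 to 737 in Cre and 552 to 737 in CreTW. The part of these tissues in the synthetase values was not tested.

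**Figure D4:**
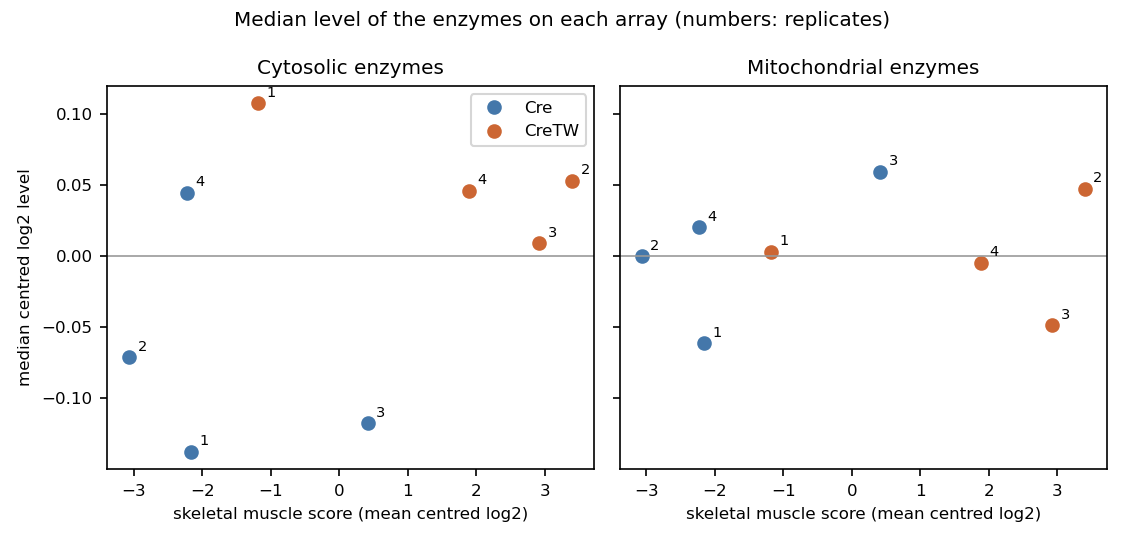
Median centred log2 level of the 20 cytosolic (left) and 15 mitochondrial (right) genes on each array (y axis) against the array's skeletal muscle score (x axis, mean centred log2 of 15 markers); points are numbered by replicate, Cre in blue and CreTW in orange. CreTW replicate 1, with a muscle score of -1.18, has the highest cytosolic median, 0.11, and the mitochondrial medians are mixed.

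Other genes of the tRNA cycle, 57 measured of 58 listed, had a median log2 difference of 0.00, and 30 of them were positive. The scaffold proteins of the multisynthetase complex, Aimp1, Aimp2 and Eef1e1, were at 0.06 ± 0.09, -0.06 ± 0.11 and 0.07 ± 0.18. The 17 genes of tRNA export and processing had a median of 0.00, with Xpot, which carries tRNA out of the nucleus, at 0.08 ± 0.09. The value farthest from 0 there was that of Ang, the ribonuclease that cuts tRNA in stress, at -0.24 ± 0.12 (adjusted p = 0.52 in limma). All 5 cytosolic elongation factors were positive, with Eef2, the translocase, at 0.26 ± 0.09 (adjusted p = 0.384 in limma), and 5 of 6 mitochondrial initiation and elongation factors were negative, with Tufm, which brings charged tRNA to the mitochondrial ribosome, at -0.22 ± 0.08 (adjusted p = 0.424 in limma). Tufm was named after its value was seen. In mitochondria, glutamine tRNA is charged through the amidotransferase of Gatb, Gatc and Qrsl1 in place of an own enzyme, and these were at -0.02 ± 0.11, 0.00 ± 0.12 and 0.05 ± 0.10. The sensor of uncharged tRNA, GCN2 (Eif2ak4), was at -0.06 ± 0.12, and its partner Gcn1 at -0.13 ± 0.10.

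For scale, genes of the ATF4 stress response are given, of which Asns, Ddit3 and Trib3 had larger values than the synthetases on these arrays. Asns, which makes asparagine, had a log2 difference of 1.27 ± 0.13, Ddit3 one of 1.02 ± 0.09 and Trib3 one of 2.92 ± 0.17, whereas that of Atf4 mRNA was 0.27 ± 0.10. The largest synthetase value, 0.53 for Sars, lay below the first 3 and above Atf4, and the differences between these genes were not tested.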

How the data were processed

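Per the file headers, the deposited intensity of each spot is the background-subtracted processed signal from Feature Extraction (Agilent, 11.5.1.1). The authors' deposited log2 value table followed its log2 minus a constant per array (largest deviation 0.487) and served as an alternative. Spots of a probe were averaged without flagged spots, taken to log2 and set relative to the array's 75th percentile (144 to 187 scanner units). Feature Extraction's per-spot flags, an other kind of value deposited by the authors, gave the filter of at least 4 of 8 arrays well above background, and 0 spots were saturated. Each array had 45.4% to 57.9% of its probes above background, and the number of arrays limits the precision. Probes were named through RefSeq transcripts (GRCm38.p6, for names alone): 32994 of 56605 had 1 symbol and 23611 none, and Mars is Mars1 there. A gene's brightest probe was used.

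Genotypes were compared with limma 3.58.1 in R 4.3.3 (lmFit, eBayes, 6 residual and 2.52 prior degrees of freedom) over 23105 features, Benjamini-Hochberg threshold 0.05. The fit was tested on simulated data. P-values weigh the difference between genotypes against the spread between mice of a genotype, moderated over all features. The members, lists and tests were chosen with earlier results of these data known. Values on every array are given for called members (there were 0), the 5 cytosolic and 4 mitochondrial genes with the largest differences, partners of those cytosolic genes, and the 3 brightest of each compartment. Other tRNA genes were named by the largest differences or after their values were seen. A called gene among them and a promoter match are not reported here. The deviations of same-numbered arrays had r of -0.10 to 0.31, the highest for replicate 3, within the -0.50 to 0.40 of arrays with different numbers. Numbers were therefore not taken as pairs, though so few arrays cannot settle it.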

Additional observations from a re-analysis of the deposited data

Results flagged for a closer look

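In 3 of 76 sets of 4 arrays, 1 array stood apart from the others, where chance gives about 5% of sets. Farsb was at 1.69 on Cre replicate 3 and at 1.36 to 1.40 on the other Cre arrays. Tars2 was at 3.09 on Cre replicate 3, against 2.96 to 2.97, and at 2.95 on CreTW replicate 1, against 2.98 on the other 3 CreTW arrays, where the whole range was narrow.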

How the results depend on the processing

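Over 23 alternatives, the 4 counts of synthetase genes called stayed at 0, except that 1 cytosolic gene, Sars, was called higher with normexp background correction and with trend and robust variances. The cytosolic median stayed positive (0.08 to 0.17), as did its excess over the mitochondrial median (0.09 to 0.19). Within slide rows 1 and 2, each with both genotypes, the cytosolic median was 0.17 and 0.08. The mitochondrial median, -0.02, was 0.043 with the mean of a gene's probes, 0.033 within row 1 and 0.021 with array weights, and -0.037 to 0.015 without single arrays. The count of other tRNA genes called higher, 1, was 0 without the background filter, with a replicate block, with the slide row as a block, within row 1, within row 2, with the muscle score as a covariate and with CreTW replicate 1 alone, and 0 to 1 without single arrays. The cause was not tested. The replicate block changed no other call here. Over all features, 53 were called higher and 27 lower, against 9 and 3 with that block, 94 and 35 with normexp, and 16 and 11 without the filter. With 4 arrays per genotype, differences of the size found here lie near or below the limit of the test.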
